A study of Homo sapiens with 6 samples.

Results

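The genes described here are 36 genes of nucleic acid sensing and interferon signaling among the 46427 genes whose reads were counted in Hs578T, a triple-negative breast cancer cell line. They were picked by symbol from known roles, with no threshold on measured values but with earlier results of these libraries known, and comprise sensors of RNA and DNA, the adaptors and kinases behind them, interferon regulatory factors, interferons, interferon receptors, JAK kinases and STATs, inhibitors of cytokine signaling and enzymes that limit or edit nucleic acids. RNA-seq was performed on 3 libraries of Hs578T cells that stably carried a control shRNA (shCTRL) and 3 libraries of Hs578T cells that stably carried CCN3 shRNA #2 (shCCN3). CCN3 is a secreted matricellular protein. Both lines were made with a retroviral pSUPER vector, selected with puromycin and grown in DMEM with fetal bovine serum and antibiotics. The sources describe the libraries of a group as independent biological replicates. One shRNA sequence was sequenced against CCN3, so an effect of lower CCN3, an effect of that shRNA on other transcripts and a difference between the selected lines cannot be told apart.

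Cells recognize viral and displaced cellular nucleic acids through sensors such as the RNA helicases RIG-I and MDA5, which signal through the mitochondrial adaptor MAVS and the kinases TBK1 and IKKε to interferon regulatory factors. These factors switch on interferons, which leave the cell and bind their receptors, and the receptor-bound kinases JAK1, TYK2 and JAK2 then phosphorylate STATs. A complex that holds STAT2 and IRF9 binds the interferon-stimulated response element (ISRE), and STAT dimers bind the gamma-activated site (GAS), in the promoters of interferon-stimulated genes. Several sensors and signaling proteins are themselves products of interferon-stimulated genes, whereas SOCS proteins are induced by cytokines and restrain the kinases.

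Of the 36 genes, 34 passed the filter on low counts and 21 changed in shCCN3 cells at an adjusted p under 0.05 in edgeR's quasi-likelihood test, 15 higher and 6 lower. That is 61.8% of those tested, beside 33.4% of all 17419 genes tested. The share that was higher was 44.1%, beside 16.2% of all genes, and the share that was lower was 17.6%, beside 17.3% of all genes. The median log2 fold change (shCCN3 over shCTRL) of the 34 genes was 0.17, and that of all genes was 0.0076. The libraries of the groups did not overlap for 22 of the 34 genes, beside 8069 of all 17419 genes tested. By role, all 4 interferon receptors tested rose, 3 of 5 sensors and 3 of 5 JAK kinases and STATs rose and none of these fell. Of the 3 inhibitors listed, 2 fell and none rose. Of the 6 adaptors, kinases and ubiquitin ligase of sensing, 1 rose and 2 fell. Of the 6 interferon regulatory factors, 2 rose and none fell. The 2 interferons went opposite ways, and of the 3 enzymes that limit or edit nucleic acids, 1 rose and 1 fell. The plot of fold changes by role gives all 34 genes.

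**Figure D1:**
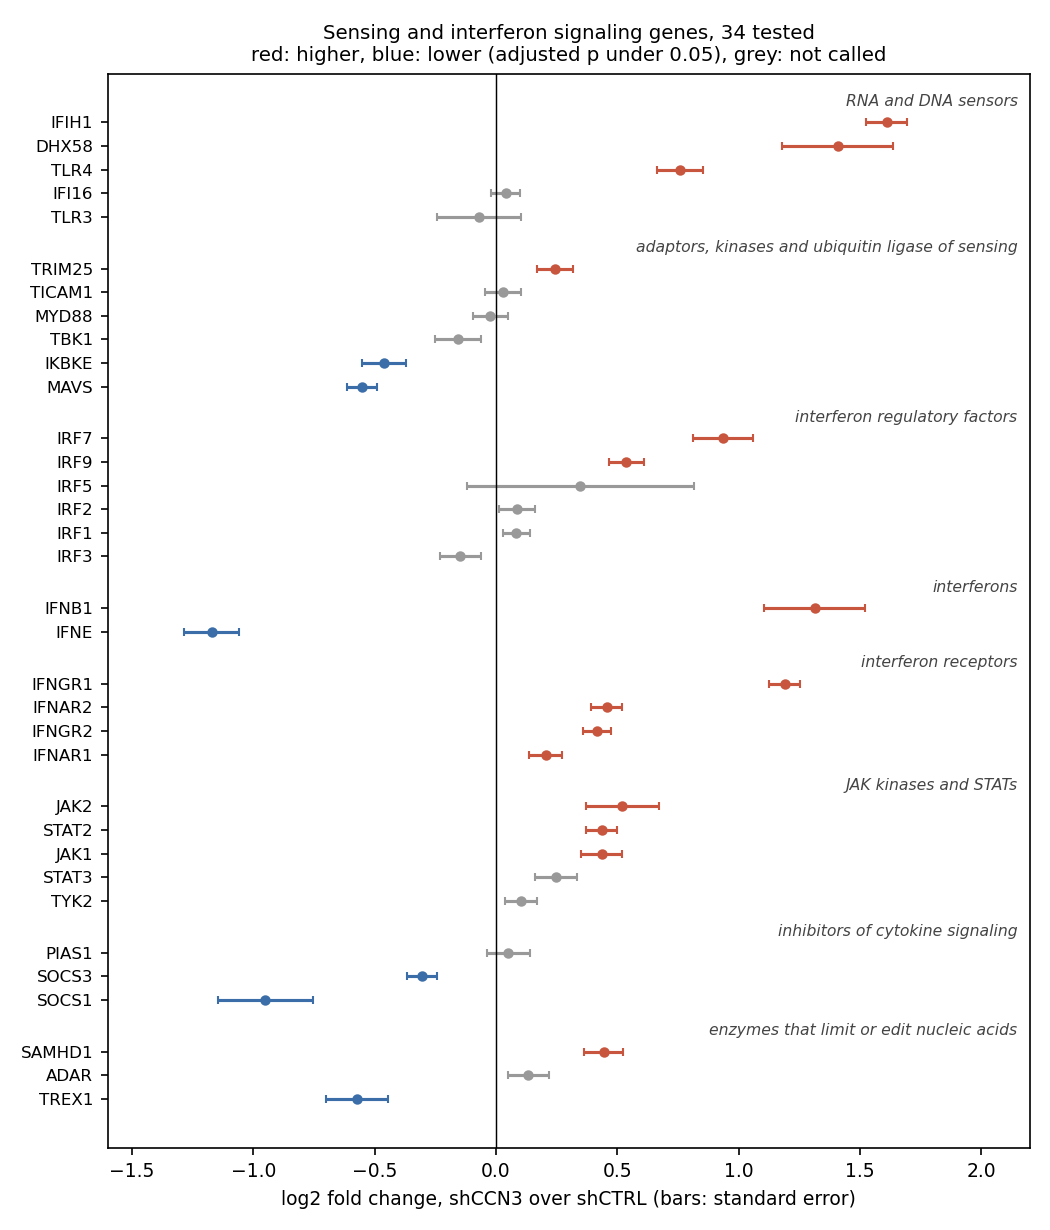
Log2 fold change of each of the 34 tested genes (x axis, shCCN3 over shCTRL), grouped by role, where points are estimates of edgeR's quasi-likelihood fit and bars are standard errors. IFIH1 lies furthest to the right at 1.61 and IFNE furthest to the left at -1.17, and the 4 receptors all lie to the right of 0.

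Libraries held from 56159110 to 68393177 counts. CPM are a gene's counts scaled to library size, and 3 counts equalled 0.0435 to 0.0540 CPM, which covers counting error only. Replicates were further apart than counting noise, with a chi-square per degree of freedom between 7.02 and 45.3, and shCCN3 replicate 2 stood apart from the other shCCN3 libraries at 37.1 and 45.3, against 9.82 between replicates 1 and 3. Without that library, 17 of the 36 genes were higher and 7 lower, and calls over all genes also went up, from 5825 of 17419 to 7229 of 17837 (3571 higher and 3658 lower). Of CCN3 mRNA, 46.6% remained, at 47.0 ± 0.469 CPM in shCCN3 against 101 ± 2.43 CPM in shCTRL (SD, n = 3 each). Markers of a mesenchymal cell line were abundant, with 6 markers summing to 14151 to 14325 CPM in shCTRL and 13412 to 13627 CPM in shCCN3. Among them CD44 fell (log2 fold change -0.25, adjusted p = 0.00429), and the others did not pass the test. Of 11 blood cell markers, 7 had no count in any library, and their sum was 0.422 to 0.827 CPM in shCTRL and 0.468 to 0.841 CPM in shCCN3. The 8 epithelial and hormone receptor markers summed to 178 to 196 CPM and 230 to 282 CPM, most of it from the keratin gene KRT18, which rose (log2 fold change 0.51, adjusted p = 0.00172). Its partner keratin KRT8 fell (log2 fold change -0.52, adjusted p = 0.00221), and GATA3 was 1.16 CPM in shCTRL and 0.729 CPM in shCCN3 (adjusted p = 0.0607). The part of these markers in the results was not tested. In bulk RNA, a change in the share of cells that express a gene and a change in its RNA per cell cannot be told apart.

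Many interferon-stimulated genes carry an ISRE or a GAS near their start. The available RefSeq promoters of the 36 genes (GRCh38.p14, 250 bases before to 50 after the start) were therefore searched on both strands. The search was for GAAANNGAAA, called ISRE-like here, and for TTCNNNGAA, which reads the same on both strands and is called GAS-like. Promoters of 30 of the 36 genes were in the table, each with a single start. For IFNGR1, IFNGR2, IFI16, IRF5 and AIM2 that start lay inside the span of the gene. Other starts of these genes were not searched. The ISRE-like letters were in 5 of them (16.7%), those of IFIH1, TLR3, AIM2, MYD88 and SOCS1, beside 3.65% of all 27305 promoters and 69.7% of the 33 interferon-stimulated genes with a promoter. The GAS-like letters were in the promoters of TLR3, MYD88, IRF1, IRF9 and IFNB1 (16.7%), beside 7.88% of all promoters and 27.3% of the interferon-stimulated genes. Shown first are the 250 bases upstream of the start, 5′ to 3′ on the gene's strand, of 3 genes with large changes described below, the RNA sensor IFIH1 (chr2:162318685-162318934, minus strand), the interferon IFNB1 (chr9:21077943-21078192, minus strand) and the inhibitor SOCS1 (chr16:11256205-11256454, minus strand). For IRF9 (chr14:24161165-24161264, plus strand) and MYD88 (chr3:38138561-38138660, plus strand), a gene that rose and one that did not pass the test, the 100 upstream bases that hold the matches are shown. Capitals mark the ISRE-like and GAS-like matches.
IFIH1: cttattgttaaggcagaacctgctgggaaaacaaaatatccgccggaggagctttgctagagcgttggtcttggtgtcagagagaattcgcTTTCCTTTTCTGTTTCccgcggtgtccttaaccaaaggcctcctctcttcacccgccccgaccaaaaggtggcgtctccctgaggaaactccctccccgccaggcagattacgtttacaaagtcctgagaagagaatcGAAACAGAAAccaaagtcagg
IFNB1: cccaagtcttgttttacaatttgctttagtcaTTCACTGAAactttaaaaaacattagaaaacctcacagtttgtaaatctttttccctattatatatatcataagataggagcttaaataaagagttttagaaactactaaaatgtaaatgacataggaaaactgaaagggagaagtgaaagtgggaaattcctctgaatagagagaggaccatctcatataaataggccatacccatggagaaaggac
SOCS1: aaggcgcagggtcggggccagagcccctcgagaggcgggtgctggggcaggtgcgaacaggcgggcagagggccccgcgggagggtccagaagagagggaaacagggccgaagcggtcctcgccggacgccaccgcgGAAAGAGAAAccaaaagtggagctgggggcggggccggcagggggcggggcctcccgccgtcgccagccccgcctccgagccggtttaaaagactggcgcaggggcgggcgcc
IRF9: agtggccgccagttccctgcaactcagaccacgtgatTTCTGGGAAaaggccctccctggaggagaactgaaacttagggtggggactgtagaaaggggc
MYD88: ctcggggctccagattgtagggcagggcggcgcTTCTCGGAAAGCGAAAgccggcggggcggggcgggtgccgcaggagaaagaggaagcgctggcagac
The IFIH1 sequence held 3 ISRE-like matches with first bases at -159, -153 and -21 from the start, the first pair overlapping on the opposite strand. In SOCS1 there was 1 at -113, IFNB1 and IRF9 held a GAS-like match each, at -218 and -63, and in MYD88 the GAS-like match at -67 overlapped the ISRE-like match at -61. Of the 12 genes with a promoter that rose, 1 held the ISRE-like letters, as did 1 of 6 that fell and 2 of 11 that did not pass the test. The GAS-like letters were in 2 of the 12, 0 of the 6 and 3 of the 11. The promoters of DHX58, IRF7 and IFNAR2, which also rose, were not searched. Those of IFNGR1 and IFNGR2, counted among the 12, were searched only around the inner starts. A match is a description of these letters, and binding was not measured. Only these letters and spacings were searched, so sites of another form would be unmarked, also in the IFNB1 stretch.

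Among the sensors, IFIH1 encodes MDA5, the helicase that binds long double-stranded RNA. It was 8.72, 7.99 and 8.39 CPM in the shCTRL libraries and 26.5, 23.5 and 26.6 CPM in the shCCN3 libraries. Every shCCN3 library was above every shCTRL library. The mean rose 3.05-fold, from 8.36 ± 0.364 to 25.5 ± 1.79 CPM (SD, n = 3 each), and its log2 fold change reached 1.61, with a standard error (SE) of 0.084 and an adjusted p of 1.56e-06. IFIH1 lies on chromosome 2 of GRCh38.p14 from 162267074 to 162318684. DHX58 encodes LGP2, a relative of MDA5 that lacks signaling domains and modulates its activity. DHX58 was 0.757, 1.03 and 1.30 CPM in shCTRL and 2.22, 2.99 and 3.001 CPM in shCCN3, so the groups did not overlap although the level was low. Its log2 fold change was 1.41 (SE 0.227, adjusted p = 0.0013).

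TLR4 encodes the cell surface receptor for bacterial lipopolysaccharide, which can also signal to interferon. TLR4 was 32.5, 29.01 and 28.2 CPM in shCTRL and 54.6, 44.2 and 52.7 CPM in shCCN3. The lowest shCCN3 library was replicate 2, still above all shCTRL libraries, and the log2 fold change was 0.76 (SE 0.094, adjusted p = 0.000277). Other sensors did not pass the test. TLR3, the endosomal receptor for double-stranded RNA, was 4.07 CPM in shCTRL and 3.87 CPM in shCCN3 on average, with overlapping groups (log2 fold change -0.07, adjusted p = 0.797). IFI16, a nuclear DNA sensor, was 89.7 and 92.2 CPM (log2 fold change 0.04, adjusted p = 0.651). AIM2, the DNA sensor of an inflammasome, had no count in the 3 shCTRL libraries and 2, 6 and 3 counts in the shCCN3 libraries, too few for the test. ZBP1, which senses nucleic acids in the left-handed Z form, had 0 counts in all 6 libraries, which at this depth allows up to 0.0435 to 0.0540 CPM.

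**Figure D2:**
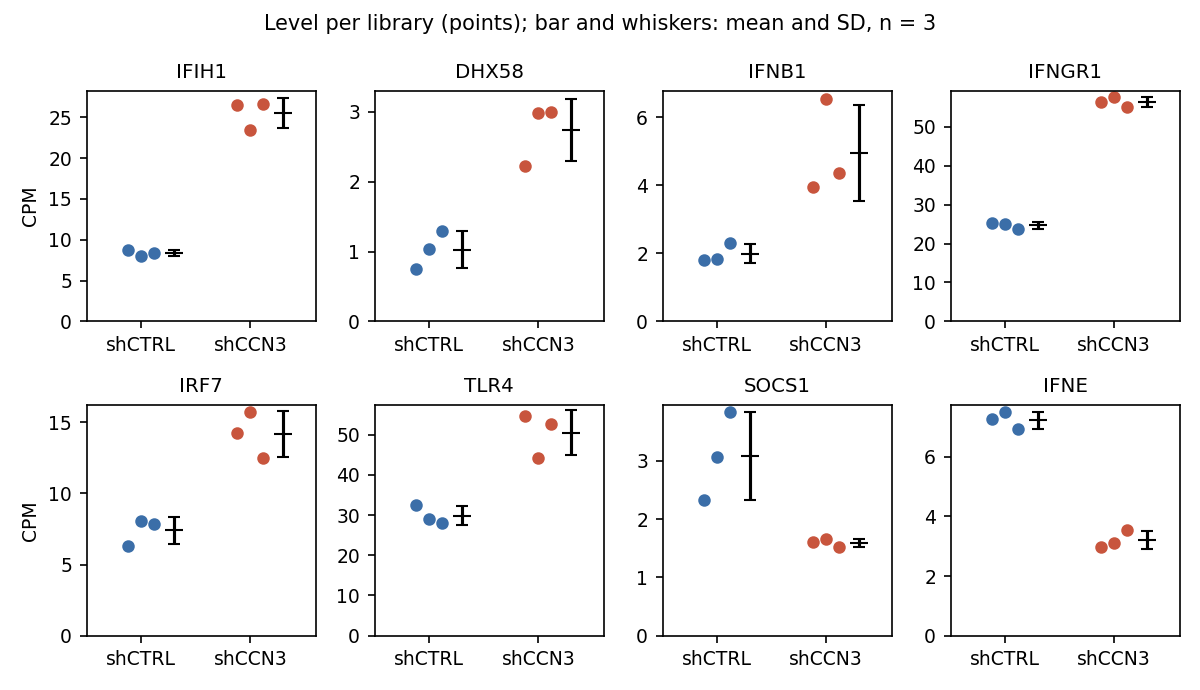
TMM-scaled CPM (y axis, from 0) of the 8 genes that passed the test and had a log2 fold change beyond 0.58 in either direction, 1 point per library, with the mean and SD of 3 libraries beside the points. In each panel the shCTRL (blue) and shCCN3 (red) points do not overlap. IFNB1 in shCCN3 and both DHX58 and SOCS1 in shCTRL have wide spreads relative to their means. The genes were picked by adjusted p and size of change, which favors groups that do not overlap.

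Behind the sensors, MAVS and IKBKE fell and TRIM25 rose. MAVS, the adaptor that RIG-I and MDA5 share, was 282, 289 and 274 CPM in shCTRL and 199.5, 178 and 199 CPM in shCCN3. All shCCN3 libraries were below all shCTRL libraries, and the log2 fold change was -0.55 (SE 0.063, adjusted p = 0.000171). The 24 tested genes nearest to MAVS on chromosome 20 had log2 fold changes with a median of -0.61, 23 of the 24 lay below 0, and the change of MAVS differed from that median by 0.06. IKBKE, which encodes IKKε, a kinase of IRF3 and IRF7, was 10.0, 11.6 and 11.2 CPM in shCTRL and 7.98, 7.97 and 7.91 CPM in shCCN3, without overlap (log2 fold change -0.46, SE 0.089, adjusted p = 0.00354).

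TRIM25 is the ubiquitin ligase known for its part in RIG-I activation. It was 95.3, 98.4 and 87.5 CPM in shCTRL and 118, 101 and 114 CPM in shCCN3, with replicate 2 of shCCN3 closest to the controls. Its log2 fold change of 0.24 passed the test (SE 0.075, adjusted p = 0.0342), but not in 5 of the 6 fits that left out 1 library. TBK1, the kinase that works beside IKKε, was 23.9 CPM in shCTRL and 21.5 CPM in shCCN3 and did not pass (log2 fold change -0.16, adjusted p = 0.244). The Toll-like receptor adaptors TICAM1 and MYD88 were at 39.3 and 40.1 CPM and at 32.0 and 31.5 CPM, with log2 fold changes of 0.03 and -0.02.

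Of the interferon regulatory factors, IRF7 and IRF9 rose and the other 4 did not pass the test. IRF7, which drives transcription of type I interferon genes and is itself induced by interferon, was 6.29, 8.05 and 7.84 CPM in shCTRL and 14.3, 15.7 and 12.5 CPM in shCCN3. The groups were well apart, and the log2 fold change was 0.94 (SE 0.124, adjusted p = 0.000404). IRF9, the DNA-binding partner of STAT2, was 23.5, 25.9 and 26.7 CPM in shCTRL and 37.3, 37.5 and 35.6 CPM in shCCN3. Its libraries did not overlap between groups either (log2 fold change 0.54, SE 0.072, adjusted p = 0.000436). Of the exon bases of IRF9, 48.4% are also annotated to another gene on the same strand, AL136295.5.

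IRF3, the factor that TBK1 phosphorylates directly, was 80.1, 86.5 and 91.15 CPM in shCTRL and 70.3, 85.9 and 76.5 CPM in shCCN3, so the groups overlapped (log2 fold change -0.15, adjusted p = 0.217). IRF1, a factor induced by interferon-γ, was 58.9 CPM in shCTRL and 62.5 CPM in shCCN3. Its 3 shCCN3 libraries were all above the shCTRL libraries, yet the log2 fold change of 0.08 did not pass (adjusted p = 0.3002). IRF2, which competes with IRF1 for its sites, had a log2 fold change of 0.09. IRF5 was near the detection limit, at 0.104 to 0.250 CPM over the 6 libraries, with a log2 fold change of 0.35 that did not pass (adjusted p = 0.616). IRF5 lies on chromosome 7, where the 24 nearest tested genes had a median of -0.44 and 23 of them were below 0.

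The 2 interferon genes moved in opposite directions. IFNB1, which encodes interferon-β, was 1.80, 1.85 and 2.31 CPM in shCTRL and 3.95, 6.55 and 4.36 CPM in shCCN3. All shCCN3 libraries were higher, with replicate 2 the highest. The mean rose from 1.99 ± 0.280 to 4.95 ± 1.40 CPM (SD, n = 3 each), giving a log2 fold change of 1.31 (SE 0.208, adjusted p = 0.00118) that lay between 1.07 and 1.45 with each library left out in turn. IFNE, which encodes interferon-ε, an interferon known from the female reproductive tract that does not depend on viral sensing for its expression, was 7.26, 7.495 and 6.93 CPM in shCTRL and 2.97, 3.09 and 3.55 CPM in shCCN3. It was below the controls in every shCCN3 library, with a mean of 7.23 ± 0.286 against 3.21 ± 0.303 CPM (SD, n = 3 each) and a log2 fold change of -1.17 (SE 0.112, adjusted p = 5.78e-05).

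Both genes lie in the interferon cluster of chromosome 9, IFNB1 from 21077104 to 21077942 and IFNE from 21480839 to 21482313 on GRCh38.p14. The IFNE gene lies within the span of MIR31HG, a long noncoding RNA gene on the same strand (21455642 to 21559669), although their annotated exons share no base. MIR31HG, looked up after the values of IFNE had been seen, was also lower, at 60.6 ± 0.720 CPM in shCTRL and 37.5 ± 1.84 CPM in shCCN3 (SD, n = 3 each), with a log2 fold change of -0.69 (SE 0.062, adjusted p = 3.76e-05). Whether reads of MIR31HG transcripts contribute to the count of IFNE was not tested.

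All 4 receptor genes rose. IFNGR1, the ligand-binding chain of the interferon-γ receptor, was 25.4, 25.0 and 23.7 CPM in shCTRL and 56.3, 57.6 and 55.0 CPM in shCCN3. The libraries within each group were close and the groups were far apart. The mean rose 2.28-fold, from 24.7 ± 0.862 to 56.3 ± 1.33 CPM (SD, n = 3 each), with a log2 fold change of 1.19 (SE 0.062, adjusted p = 1.59e-06). IFNGR1 lies on chromosome 6 (137197484 to 137219385), and among its 24 nearest tested genes the median change was 0.36 on the log2 scale and 23 lay above 0. The change of IFNGR1 exceeded that median by 0.83.

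The other 3 receptor genes are neighbours on chromosome 21, where the median over 224 tested genes was 0.23. IFNGR2, the signaling chain of the interferon-γ receptor, was 57.1, 53.6 and 54.2 CPM in shCTRL and 72.6, 74.8 and 72.9 CPM in shCCN3 (log2 fold change 0.42, adjusted p = 0.000517). IFNAR2, the chain that binds type I interferons tightly, was 27.3, 26.1 and 27.1 CPM in shCTRL and 35.6, 37.3 and 37.6 CPM in shCCN3 (log2 fold change 0.46, adjusted p = 0.000524). Of the exon bases of IFNAR2, 44.2% are shared with the gene AP000295.1 on the same strand. IFNAR1, the other type I chain, was 65.3, 64.8 and 59.4 CPM in shCTRL and 72.4, 68.9 and 76.9 CPM in shCCN3. None of the 3 genes overlapped between groups, but IFNAR1 changed least (log2 fold change 0.20, SE 0.068, adjusted p = 0.0439), and its call was lost in 5 of the 6 fits without 1 library and at an adjusted p of 0.0647 without the filter on low counts. Among the neighbours, the median log2 fold change was 0.22 for IFNGR2 and 0.25 for both IFNAR2 and IFNAR1. These sets of neighbours include the other receptor genes.

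**Figure D3:**
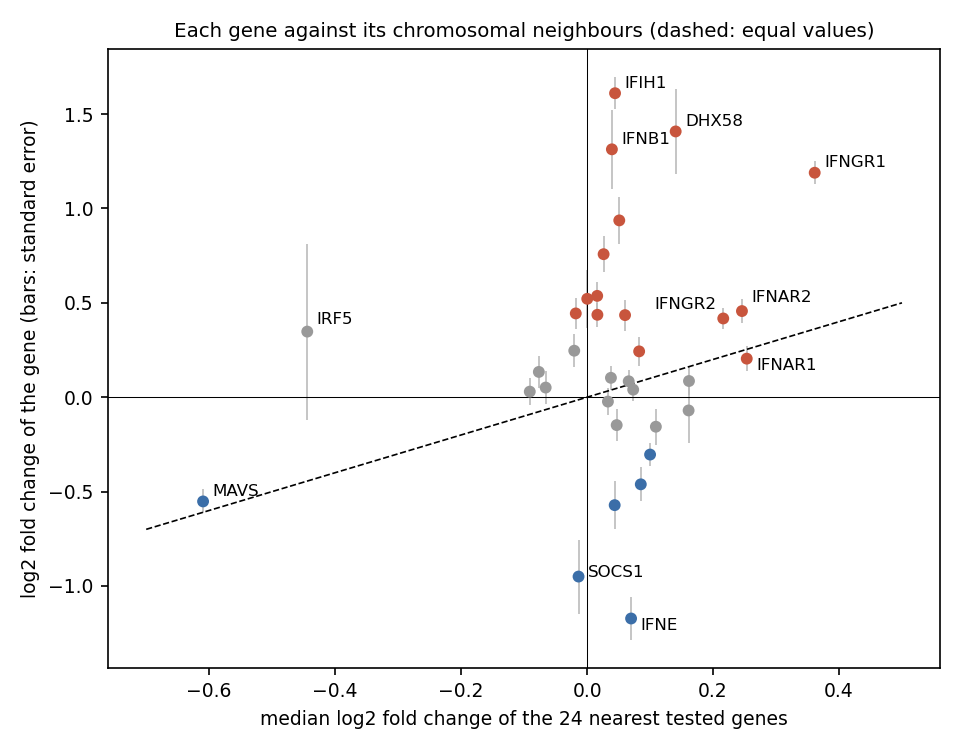
Log2 fold change of each of the 34 genes (y axis, bars are standard errors) against the median log2 fold change of its 24 nearest tested genes on the chromosome (x axis), with called genes in red (higher) or blue (lower) and the dashed line at equal values. MAVS and IFNAR1 lie close to the line, IFNGR1 lies 0.83 above its neighbours' median, and 28 of the 34 genes have a neighbour median between -0.09 and 0.16.

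Downstream of the receptors, JAK1, JAK2 and STAT2 rose. JAK1, the kinase used by both interferon receptors, was 151, 147 and 137 CPM in shCTRL and 207, 172 and 209 CPM in shCCN3 (log2 fold change 0.43, SE 0.083, adjusted p = 0.00323). STAT2, the STAT that binds IRF9, was 46.5, 47.0 and 44.8 CPM in shCTRL and 60.1, 60.6 and 66.5 CPM in shCCN3, with groups apart (log2 fold change 0.44, SE 0.064, adjusted p = 0.000751). JAK2, the kinase bound to IFNGR2, was 10.97, 8.93 and 9.01 CPM in shCTRL and 13.7, 11.01 and 16.8 CPM in shCCN3. Replicate 2 of shCCN3 lay just above the highest control, and the call (log2 fold change 0.52, SE 0.152, adjusted p = 0.0265) was lost in 4 of the 6 fits without 1 library.

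TYK2, the kinase bound to IFNAR1, did not pass the test at 130 and 140 CPM (log2 fold change 0.10). STAT3, which transmits interleukin-6 signals and is activated more weakly by interferons, was 98.2, 93.5 and 85.2 CPM in shCTRL and 115, 96.45 and 117 CPM in shCCN3. Replicate 2 of shCCN3 fell within the control range. The log2 fold change of STAT3 was 0.25 with an adjusted p of 0.0570, and it passed with DESeq2 (adjusted p = 0.0293), with a filter of at least 10 counts in every library (adjusted p = 0.0482) and without shCCN3 replicate 2 (adjusted p = 0.0024).

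**Figure D4:**
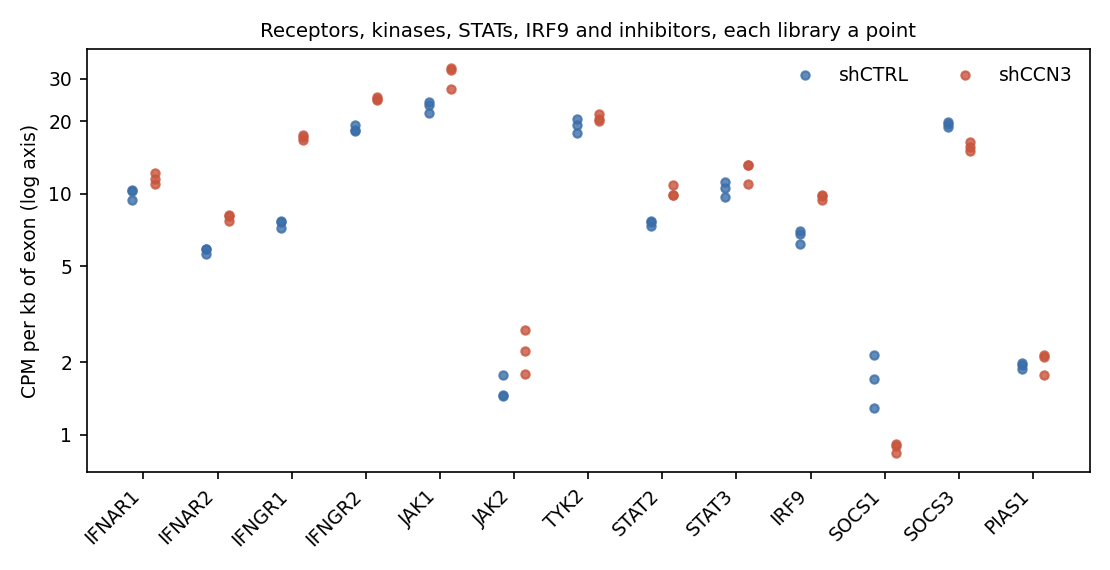
CPM per kilobase of annotated exon (y axis, log scale) of the receptor genes, JAK kinases, STATs, IRF9 and inhibitors, 1 point per library. JAK1 has the highest level in both groups and SOCS1 the lowest in shCCN3, and the IFNGR1 points move from below IFNAR1 in shCTRL to above it in shCCN3.

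Levels of different genes were compared per kilobase of exon, from GENCODE release 29 lengths. These lengths join all annotated exons of a gene, 3277 bases for IFNGR1 and 6301 for IFNAR1. The transcripts present in the cells can be shorter, so the order of genes at similar levels depends on the lengths used. Among the receptor chains in shCTRL the order was IFNGR2 at 18.6, IFNAR1 at 10.0, IFNGR1 at 7.53 and IFNAR2 at 5.82 CPM per kb. In shCCN3 it was IFNGR2 at 24.8, IFNGR1 at 17.2, IFNAR1 at 11.5 and IFNAR2 at 7.98 CPM per kb. With these lengths IFNGR1 and IFNAR1 changed places, and the libraries of these genes did not overlap in either group. Other lengths were not tried. Of the kinases, JAK1 (22.95 in shCTRL and 31.0 in shCCN3) and TYK2 (19.2 and 20.6) were far above JAK2 (1.56 and 2.24 CPM per kb). STAT3 was above STAT2 in both groups, at 10.5 against 7.55 CPM per kb in shCTRL and 12.4 against 10.2 CPM per kb in shCCN3.

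Of the inhibitors, SOCS1 and SOCS3 fell. SOCS1, which blocks JAK kinases at interferon receptors, was 2.33, 3.07 and 3.84 CPM in shCTRL and 1.61, 1.66 and 1.52 CPM in shCCN3. The shCTRL libraries were spread and the shCCN3 libraries were tight, all below the lowest control. The mean went from 3.08 ± 0.758 to 1.59 ± 0.0709 CPM (SD, n = 3 each), and the log2 fold change was -0.95 (SE 0.196, adjusted p = 0.00506) and lay between -1.12 and -0.76 with each library left out. SOCS3, which acts mainly on receptors of the interleukin-6 family, was 51.7, 54.2 and 53.3 CPM in shCTRL and 45.01, 42.9 and 41.0 CPM in shCCN3, again without overlap (log2 fold change -0.30, SE 0.062, adjusted p = 0.00488). PIAS1, a SUMO ligase that inhibits STAT signaling, was 20.9 and 21.6 CPM and did not pass (log2 fold change 0.05).

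Among the enzymes that limit or edit nucleic acids, SAMHD1, which degrades deoxynucleotides, was 45.1, 41.8 and 42.2 CPM in shCTRL and 60.4, 52.0 and 63.1 CPM in shCCN3, and rose without overlap (log2 fold change 0.44, SE 0.082, adjusted p = 0.0027). TREX1, the exonuclease that clears cytosolic DNA, was 11.9, 12.5 and 11.99 CPM in shCTRL and 7.85, 9.86 and 6.81 CPM in shCCN3. It was lower in every shCCN3 library (log2 fold change -0.57, SE 0.128, adjusted p = 0.00777). All exon bases of TREX1 (100%) are also annotated to ATRIP, a DNA damage signaling gene on the same strand, and ATRIP was 40.9 CPM in shCTRL and 34.4 CPM in shCCN3 (log2 fold change -0.25, adjusted p = 0.0836), so how reads were split between them is uncertain. ADAR, which edits adenosine to inosine in double-stranded RNA and thereby hides it from MDA5, was 180, 173 and 165 CPM in shCTRL and 194, 167 and 208 CPM in shCCN3. The ADAR groups overlapped through shCCN3 replicate 2 (log2 fold change 0.13, adjusted p = 0.258), and without that library the adjusted p was 0.0118.

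A list of 73 other genes of the same pathways held 58 tested genes, of which 23 (39.7%) changed, near the 33.4% of all genes. Of these, 15 were higher (25.9% beside 16.2% of all genes) and 8 lower (13.8% beside 17.3%), with a median log2 fold change of 0.10. Among its members with large changes were DDX58, which encodes RIG-I, the sensor of RNA with a 5′ triphosphate, and the transcription factor gene STAT5A. DDX58 was 26.1, 23.6 and 25.4 CPM in shCTRL and 64.9, 68.1 and 63.4 CPM in shCCN3, with a log2 fold change of 1.39 (SE 0.067, adjusted p = 1.05e-06), close to that of IFIH1. STAT5A rose from 4.28 ± 0.454 to 10.6 ± 0.247 CPM (SD, n = 3 each), with a log2 fold change of 1.31 (adjusted p = 1.95e-05). The type III interferon gene IFNL1 was 0.858, 1.02 and 1.47 CPM in shCTRL and 1.91, 2.28 and 2.25 CPM in shCCN3 (log2 fold change 0.94, adjusted p = 0.00977). The cytosolic DNA sensor gene CGAS and its partner STING1 did not pass the test, with log2 fold changes of 0.10 and 0.19 (adjusted p = 0.486 and 0.225).

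The interferon-stimulated genes are the transcriptional output of these pathways. Of 38 listed and tested, 34 (89.5%, beside 33.4% of all genes) changed, 33 higher and 1 lower, and their median log2 fold change was 1.06, beside 0.17 for the 34 sensing and signaling genes. The smallest adjusted p values among them belonged to IFIT3, IFIT1 and IFIT2. IFIT3 rose from 55.5 ± 0.958 to 185 ± 2.32 CPM, IFIT1 from 40.6 ± 1.63 to 135 ± 2.77 CPM and IFIT2 from 24.1 ± 1.83 to 86.8 ± 4.18 CPM (SD, n = 3 each), with log2 fold changes of 1.73, 1.74 and 1.85. The gene that fell was UBE2L6, the conjugating enzyme of ISG15, with a log2 fold change of -0.40 (adjusted p = 0.00161). The increases of IFIH1, DHX58, IFNB1 and IFNGR1 lay above the median of the interferon-stimulated genes. Those of the other sensing and signaling genes that rose lay below it, among them JAK1, STAT2 and the chromosome 21 receptor genes.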

How the data were processed

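The authors prepared stranded mRNA libraries and deposited raw read counts per gene, with no normalization. The submitters' processing notes name HISAT2 2.1.0, StringTie 2.1.3d and GRCh38, and whether counting used the strand is not given in the sources used here, so genes that share exons are uncertain. From these counts, edgeR 4.0.16 in R 4.3.3 gave TMM-scaled CPM, its group-wise filter on low counts, log2 fold changes and quasi-likelihood tests of 3 shCCN3 against 3 shCTRL libraries, with Benjamini-Hochberg adjustment over 17419 genes. Simulated data were used to test the scripts. An exact permutation test of 3 against 3 libraries cannot give a p below 0.1. All 36 genes are named. The 8 with a log2 fold change beyond 0.58 and an adjusted p under 0.05 have library values, SE and adjusted p. Of the other pathway genes, those beyond 1 were named by rule, except for values not reported here, and IFNL1, CGAS, STING1, UBE2L6 and MIR31HG after their values were seen. The members and lists were chosen with earlier results of these data known, so their directions are not independent support. Coordinates and promoters came from RefSeq (GRCh38.p14, 44661 of the gene IDs matched), and exon lengths and overlaps from GENCODE release 29. Alternatives were DESeq2's size factors, upper-quartile scaling, no filter, at least 10 counts in every library, DESeq2 1.42.0, limma-voom (limma 3.58.1), a replicate block and each library left out.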

Additional observations from a re-analysis of the deposited data

How the results depend on the processing

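Of the 21 genes that changed, 18 were called under all 13 alternatives and none reversed. The exceptions were TRIM25, IFNAR1 and JAK2. The number of the 36 genes called higher was 15, ranged from 13 to 16 under other scalings, filters, tools and the replicate block, and from 12 to 17 with 1 library left out, and the number called lower was 6, or 7 without shCCN3 replicate 2. Same-numbered libraries did not deviate together (correlations 0.149, -0.0726 and -0.259), so the numbers were not taken as pairs. With the replicate block, 13 genes were higher and 6 lower, TRIM25 (adjusted p = 0.0787) and IFNAR1 (adjusted p = 0.121) were lost, and calls over all genes went from 5825 to 4887. Of the other pathway genes, 15 were higher (12 to 20 with a library left out) and 8 lower (5 to 8, with 5 without shCTRL replicate 1 or 2). Interferon-stimulated genes called higher ranged from 30 to 34. Small changes that had not passed the test turned sign with a library left out. The log2 fold change of TLR3 ranged from -0.1844 to 0.0767 and was 0.0176 without shCTRL replicate 1 and 0.0767 without shCCN3 replicate 2, that of TICAM1 ranged from -0.0178 to 0.0720 and was -0.0178 without shCTRL replicate 1 and -0.0128 without shCCN3 replicate 1, and that of MYD88 ranged from -0.0690 to 0.0402 and was 0.0402 without shCTRL replicate 2. The cause was not tested. Leaving out shCCN3 replicate 2 also brought IRF3 (log2 fold change -0.22, adjusted p = 0.0233) past the threshold.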
